A study of Mus musculus with 20 samples.

Results

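The genes described here handle the fatty acids that a heart takes up and stores: the lipases Pnpla2, Lipe and Lpl, the fatty acid transporters Cd36 and Slc27a1, the fatty acid binding proteins Fabp3 and Fabp4, the acyl-CoA synthetase Acsl1 and the adipocyte protease Cfd. Members were all probe sets whose only gene symbol in the platform annotation is one of these 9 names. Of the 9 genes, 7 had such a probe set, among 8251 named genes, and they held 9 of 12422 probe sets once control spots were set aside. A filter that left out the dimmest 40% of probe sets kept 8 of the 9, which cover all 7 genes, among 7454 tested probe sets for 5663 named genes. Acsl1 and Cfd are not analysed here.

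Hearts of 20 male hybrid mice (B6C3F1), housed singly, were each measured on 1 oligonucleotide array, with 5 animals in each of 4 groups. Young controls were 5 months old and old controls 30 months old, both on the control diet. The other 10 animals were also 30 months old and had received, from 15 months of age, a diet with either α-tocopherol at 1000 mg/kg or α- and γ-tocopherol at 500 mg/kg each, called the mixed diet below; both compounds are forms of vitamin E. The strain label of old controls 1 and 4 reads B6/C3H hybrid without F1. The series asks how expression in the heart changes with age and whether these diets alter it.

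As background, the heart burns mainly fatty acids. Lpl on the capillary wall frees them from circulating lipoproteins, Cd36 and Slc27a1 help them across the cell membrane, and Fabp3 carries them inside the cardiomyocyte. Fatty acids that are not burned at once are kept as triglyceride in lipid droplets, from which Pnpla2 cuts the first fatty acid and Lipe the next; Fabp4 and Lipe are also abundant in adipocytes, and several of these genes are known targets of the PPAR receptors.

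The promoters of the members whose levels differed between groups are printed first, because the results turn on how Pnpla2, Lipe and Slc27a1 moved. RefSeq windows of assembly GRCm38.p6, from 250 bases before to 50 bases after a gene's start, were held for 7 of the 9 members, in 11 windows; Lpl and Fabp4 had none. Letters are in gene orientation, and capitals mark matches, on either strand, to a GC box (GGGCGG), an E-box (CACGTG), a forkhead site (GTAAACA), the hexamer AGGTCA, or 2 such hexamers with 1 base between them (the PPAR type of repeat, up to 2 mismatches).
Pnpla2, chr7:141454938-141455237, plus strand: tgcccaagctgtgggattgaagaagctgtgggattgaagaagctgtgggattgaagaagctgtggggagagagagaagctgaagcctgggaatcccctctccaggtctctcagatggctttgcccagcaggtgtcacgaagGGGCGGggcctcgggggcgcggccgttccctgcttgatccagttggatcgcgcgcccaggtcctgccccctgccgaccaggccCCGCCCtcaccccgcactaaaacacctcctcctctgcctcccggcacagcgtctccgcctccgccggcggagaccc
Lipe, upstream start, chr7:25395938-25396237, minus strand: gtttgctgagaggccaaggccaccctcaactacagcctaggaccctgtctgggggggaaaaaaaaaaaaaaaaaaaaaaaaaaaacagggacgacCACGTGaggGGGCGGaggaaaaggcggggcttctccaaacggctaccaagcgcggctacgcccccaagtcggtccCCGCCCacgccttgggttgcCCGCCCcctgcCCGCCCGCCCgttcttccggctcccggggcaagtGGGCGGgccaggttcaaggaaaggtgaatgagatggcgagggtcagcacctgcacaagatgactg
Lipe, downstream start, chr7:25390063-25390362, minus strand: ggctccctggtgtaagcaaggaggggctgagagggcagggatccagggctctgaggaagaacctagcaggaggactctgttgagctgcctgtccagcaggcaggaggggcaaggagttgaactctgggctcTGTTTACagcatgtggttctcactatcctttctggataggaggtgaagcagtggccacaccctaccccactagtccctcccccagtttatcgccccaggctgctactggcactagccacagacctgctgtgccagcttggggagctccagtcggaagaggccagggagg
Slc27a1, the most downstream of its 3 starts, chr8:71570344-71570643, plus strand: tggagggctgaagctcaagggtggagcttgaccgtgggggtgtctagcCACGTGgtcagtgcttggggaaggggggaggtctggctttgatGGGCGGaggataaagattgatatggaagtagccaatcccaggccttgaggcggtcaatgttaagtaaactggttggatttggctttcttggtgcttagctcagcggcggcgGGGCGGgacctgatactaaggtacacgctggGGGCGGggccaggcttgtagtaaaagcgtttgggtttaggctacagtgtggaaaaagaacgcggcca
Cd36, chr5:17835847-17836146, minus strand: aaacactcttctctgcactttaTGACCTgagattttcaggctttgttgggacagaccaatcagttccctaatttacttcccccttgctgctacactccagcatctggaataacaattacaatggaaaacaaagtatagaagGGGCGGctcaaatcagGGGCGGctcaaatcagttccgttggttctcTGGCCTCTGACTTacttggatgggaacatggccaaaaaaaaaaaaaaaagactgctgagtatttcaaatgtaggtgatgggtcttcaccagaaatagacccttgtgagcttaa

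Among the members, Cd36 alone had a match to the repeat of AGGTCA hexamers, at position -63 from its start with 2 mismatches (aagtcagaggcca on the minus strand), and it alone held an exact AGGTCA. Of all 32851 promoter windows, 3.86% held such a repeat and 16.3% an exact AGGTCA. GC boxes lay in 6 of the 11 member windows and in 35.7% of all windows. An E-box lay in 2 of 11, the upstream Lipe window and the Slc27a1 window above, against 7.15% of all windows. The forkhead letters lay in 1 of 11, the downstream Lipe window, against 3.65% of all windows. The GC box, E-box and forkhead letters were chosen after the expression values had been seen. The only motif found in both the Pnpla2 window and the printed Slc27a1 window was the GC box. That Slc27a1 window held 3 GC boxes and 1 E-box. Of its other windows, the most upstream held 0 matches to these motifs and the middle one 1 GC box. These matches describe letters, not bound sites.

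All values below are log2(intensity + 58), where intensity is the deposited linear brightness of a probe set, and differences are given with their standard error. A probe set was called changed when its adjusted p from limma, with Benjamini-Hochberg adjustment over all 7454 tested probe sets, was below 0.05. The deposited trimmed means of the arrays were alike (1501.0 to 1501.1), and array medians spread over 0.115. The 5 α-tocopherol arrays stood apart in their control probe sets: hybridization controls were 0.85 above those of old controls and the 18S probe sets 1.66 above (exact two-sided permutation test, p = 0.0079 for each, the smallest that 5 against 5 can give; 0.063 after adjustment over 48 such tests). Old control 3 had a Gapdh 3' minus 5' difference of 1.21, against -0.15 to -0.11 in the other old controls. The cardiomyocyte markers were bright on every array, with a summed intensity of 624876 to 1014835. In whole hearts, fewer cells of a type and less RNA per cell cannot be told apart.

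**Figure D1:**
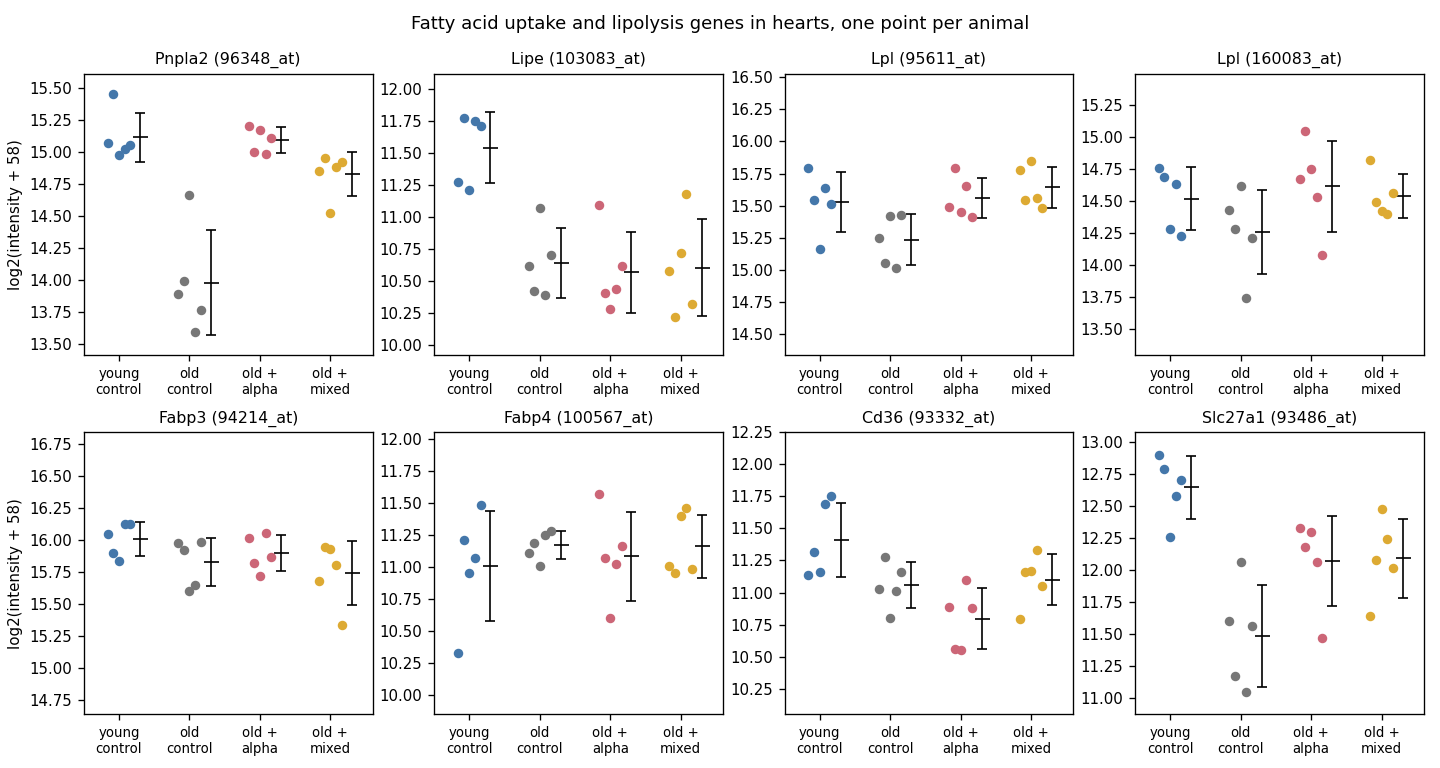
Level of each tested member probe set, as log2(intensity + 58), in the hearts of single animals. Points are animals in 4 groups of 5 and bars are mean ± SD; all panels span the same log2 range. Pnpla2 lies at 13.59 to 14.66 in old controls and at 14.52 to 14.95 on the mixed diet, and Lipe lies below the young controls in all 3 old groups.

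Pnpla2, the lipase that opens triglyceride breakdown, was 2.19-fold lower in old than in young controls and 2.17-fold higher with α-tocopherol than in old controls. Young controls read 15.07, 15.45, 14.97, 15.02 and 15.05. Old controls read 13.89, 13.99, 14.66, 13.59 and 13.76, all below every young animal. Animals given α-tocopherol read 15.20, 15.00, 15.17, 14.98 and 15.11, all above every old control and within the young range. On the mixed diet the values were 14.85, 14.95, 14.52, 14.88 and 14.92, and 4 of the 5 lay above the highest old control. The difference with age was -1.13 ± 0.14 (limma adjusted p = 4.5e-05), that with α-tocopherol 1.11 ± 0.14 (adjusted p = 2.2e-05) and that with the mixed diet 0.85 ± 0.14 (adjusted p = 0.0015). These 3 comparisons share the old controls. Set against young controls, the α-tocopherol group differed by -0.018 (95% interval -0.32 to 0.28) and the mixed group by -0.29 (95% interval -0.59 to 0.012, adjusted p = 0.27), although all 5 mixed-diet animals lay below all young ones.

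In mean intensity, Pnpla2 stood at 35619 ± 5161 in young controls, 16657 ± 5332 in old controls, 34969 ± 2407 with α-tocopherol and 29112 ± 3244 on the mixed diet (SD, n = 5 each). Old control 3, the array with the high Gapdh difference, was the highest old control for Pnpla2, Lipe and Slc27a1; without it the age difference of Pnpla2 was -1.30 and the α-tocopherol difference 1.29. With the hybridization controls as a covariate the α-tocopherol difference was 1.06 ± 0.26 (limma adjusted p = 0.037), and with the 18S level it was 0.79 ± 0.21 and missed the threshold (adjusted p = 0.056).

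Lipe, hormone-sensitive lipase, which acts after Pnpla2 and is abundant in fat cells, was low in every old group. Young controls read 11.27, 11.77, 11.21, 11.75 and 11.71. Old controls read 10.62, 10.42, 11.07, 10.39 and 10.70. The α-tocopherol group read 11.09, 10.41, 10.28, 10.44 and 10.62, and the mixed group 10.58, 10.22, 10.72, 11.18 and 10.32. No animal of the 3 old groups reached the lowest young control. Lipe was 1.87-fold lower in old controls (-0.91 ± 0.19, limma adjusted p = 0.0048), 1.97-fold lower with α-tocopherol (-0.98 ± 0.19, adjusted p = 0.0012) and 1.92-fold lower on the mixed diet (-0.94 ± 0.19, adjusted p = 0.0046), each against the same young controls. With the 18S covariate the difference between α-tocopherol and young controls was -0.53 ± 0.29 and did not pass (adjusted p = 0.44). Against old controls Lipe differed by -0.070 with α-tocopherol (95% interval -0.46 to 0.32) and by -0.034 on the mixed diet (95% interval -0.42 to 0.35).

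Adipocyte markers had age differences of both signs, of which 0 passed. Adipoq, the adipocyte hormone adiponectin, named after its values were seen, had intensities of 3072 to 5939 in young controls and 1030 to 1599 in old controls, 370 to 4643 with α-tocopherol and 364 to 7235 on the mixed diet. Its age difference was -1.61 ± 0.56 (limma adjusted p = 0.105 over all 20 arrays, and 0.000196 when only young and old controls were fitted). With the Adipoq level as a covariate, an alternative chosen after seeing the data, the age difference of Lipe was -0.62 ± 0.20 and no longer passed (adjusted p = 0.0997), while Pnpla2 (-1.11) and Slc27a1 (-1.07) did. The median age difference of the list was -0.49. Pck1 had intensities of 1051 to 1868 in young and 182 to 562 in old controls (-1.82 ± 0.55, limma adjusted p = 0.058). Cidea had 3496 to 6783 and 2154 to 3083 (-0.83 ± 0.32, adjusted p = 0.16). Car3, Aoc3 and the brighter tested probe set of Lep also had lower means in old controls. The other tested Lep probe set went the other way, with intensities of 319.6 to 1382.5 in young and 870.8 to 1896.0 in old controls. Thrsp, a regulator of lipid synthesis, had a higher mean there, with intensities of 1018 to 1814 in young and 2537 to 3392 in old controls (1.08 ± 0.34, limma adjusted p = 0.067). Ucp1, the uncoupling protein of brown fat, differed by 1.25 ± 0.90 (adjusted p = 0.53), and Scd1 and Gpd1 also had higher means in old controls. Of the 10 tested adipocyte markers that are not members, 0 were called with age, α-tocopherol or the mixed diet, and their summed intensity was 27202 to 45066 in young and 26299 to 39856 in old controls, 13065 to 91705 with α-tocopherol and 17406 to 121888 on the mixed diet. Scd1 was the brightest of these markers, at 7661 to 22043 in young and 11157 to 22613 in old controls, and weighs most in the sum. The part of the adipocyte markers in the Lipe result was not tested further. Without old controls 1 and 4, Lipe differed with age by -0.82 ± 0.22 (adjusted p = 0.058).

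Taking both lipases on each array, Pnpla2 minus Lipe was higher on either supplement than in old controls. The log2 difference of Pnpla2 minus Lipe on each array was 3.80, 3.68, 3.75, 3.28 and 3.34 in young controls and 3.27, 3.58, 3.59, 3.20 and 3.07 in old controls. It was 4.11, 4.60, 4.89, 4.53 and 4.49 with α-tocopherol and 4.27, 4.72, 3.80, 3.70 and 4.60 on the mixed diet. Every supplemented animal lay above every old control, while mixed-diet animals 3 and 4 lay within the range of young controls; no test of the supplements against young controls was made for this difference. Against old controls the within-array difference was 1.19 higher with α-tocopherol and 0.88 higher on the mixed diet (exact two-sided permutation test, p = 0.0079 for each, the smallest 5 against 5 allow; 0.016 after adjustment over 4 comparisons). Old and young controls differed by -0.23 (exact permutation p = 0.18), and the mixed diet differed from α-tocopherol by -0.31 (exact permutation p = 0.22). The array covariates were not applied to this difference. On the mixed diet, animals 3 and 4 had 18S levels of 10.755 and 9.904, against 11.725 to 11.982 in animals 1, 2 and 5. Young controls 4 and 5 and old controls 4 and 5 were lowest in their groups for both 18S and this difference. The α-tocopherol group showed no such order: animal 5 had the highest 18S level (12.736) and read 4.49, and animal 3 (12.246) read 4.89. Whether the 18S level accounts for the group differences in Pnpla2 minus Lipe was not tested. Fitted singly with the 18S covariate, the α-tocopherol difference from old controls was 0.79 for Pnpla2 and 0.34 for Lipe. With the hybridization covariate these were 1.06 and -0.54, and without a covariate 1.11 and -0.070. This pair was chosen with earlier results of these data known, and the difference compares arrays with each other, not the abundance of one transcript with that of the other.

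**Figure D2:**
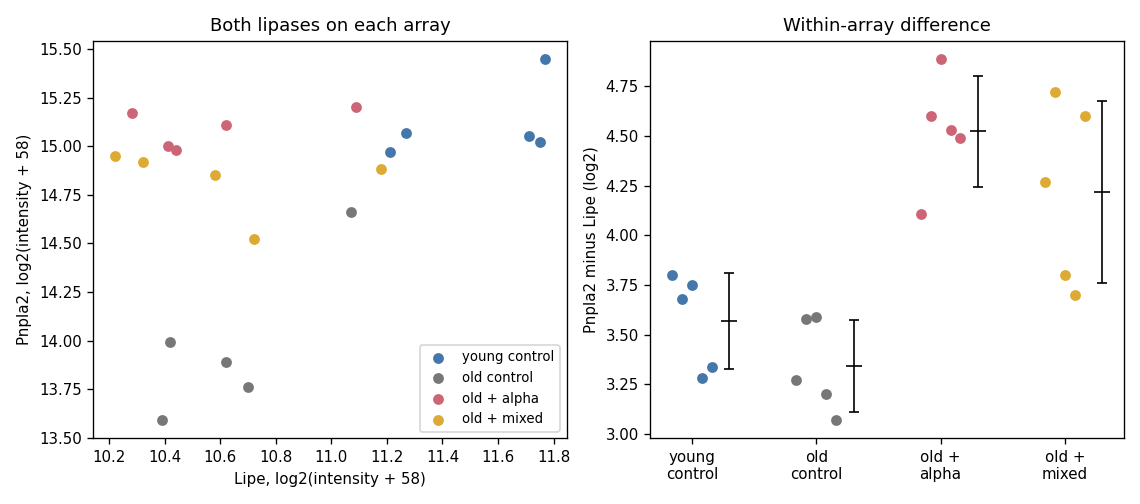
Pnpla2 against Lipe on each of the 20 arrays (left, both axes log2(intensity + 58)), and Pnpla2 minus Lipe in log2 units by group (right, points are animals and bars mean ± SD, n = 5). Supplemented animals lie at 3.70 to 4.89 on the right and old controls at 3.07 to 3.59.

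Slc27a1, the transport protein FATP1, was 2.23-fold lower in old than in young controls and the means of both supplemented groups lay between them. Young controls read 12.90, 12.79, 12.26, 12.58 and 12.70. Old controls read 11.60, 11.17, 12.06, 11.05 and 11.56, all below every young animal. The α-tocopherol group read 12.33, 12.18, 12.30, 12.06 and 11.47 and the mixed group 11.64, 12.08, 12.48, 12.24 and 12.02; in each, 3 of 5 animals lay above the highest old control. The age difference was -1.16 ± 0.19 (limma adjusted p = 0.00074). With α-tocopherol Slc27a1 was 0.58 ± 0.19 above old controls (adjusted p = 0.034) and differed from young controls by -0.58 ± 0.19 (adjusted p = 0.042). On the mixed diet it was 0.60 ± 0.19 above old controls (adjusted p = 0.061) and differed from young ones by -0.56 ± 0.19 (adjusted p = 0.088), and neither passed.

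The α-tocopherol call of Slc27a1 lay near the threshold. It was lost without any one of old controls 2, 4 or 5 or of α-tocopherol animals 1 to 4, with differences of 0.47 to 0.60 and limma adjusted p of 0.0507 to 0.0983. With the hybridization controls as a covariate the difference was -0.0056 ± 0.30 (adjusted p = 0.99), and with the 18S level it was 0.73 ± 0.30 (adjusted p = 0.21). The mixed-diet difference passed without old control 3 (0.74, adjusted p = 0.023) and without mixed-diet animal 1 (0.71, adjusted p = 0.044). Against young controls the α-tocopherol call was lost without any one of young controls 1, 2, 4 or 5 or of α-tocopherol animals 2, 4 or 5, with adjusted p of 0.0554 to 0.121. The age difference of Slc27a1 kept its call without each animal in turn.

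Lpl, lipoprotein lipase, was somewhat higher on both supplemented diets than in old controls at the brighter of its 2 probe sets. There, young controls read 15.79, 15.54, 15.16, 15.64 and 15.51, and old controls 15.25, 15.05, 15.42, 15.01 and 15.43. The α-tocopherol group read 15.49, 15.79, 15.45, 15.65 and 15.41, and 4 of 5 lay above all old controls. The mixed group read 15.78, 15.54, 15.85, 15.56 and 15.48, all above all old controls. The difference was 0.33 ± 0.12 with α-tocopherol (limma adjusted p = 0.047) and 0.41 ± 0.12 on the mixed diet (adjusted p = 0.036). With age it was -0.30 ± 0.12 and did not pass (adjusted p = 0.15), but it passed without young control 3 (-0.39, adjusted p = 0.040). The second probe set of Lpl differed by -0.26 ± 0.16 with age, 0.36 ± 0.16 with α-tocopherol and 0.28 ± 0.16 on the mixed diet, and passed in none; without α-tocopherol animal 5 it passed at 0.49 (adjusted p = 0.030).

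Both Lpl calls lay near the threshold. The α-tocopherol call was lost without any one of old controls 1, 2 or 4 or of α-tocopherol animals 1 to 4, with differences of 0.27 to 0.36 and limma adjusted p of 0.0571 to 0.12. The mixed-diet call was lost without any one of old controls 1, 2 or 4 or of mixed-diet animals 1, 2 or 3, with differences of 0.36 to 0.44 and adjusted p of 0.0516 to 0.0923. With the hybridization controls as a covariate Lpl differed by -0.028 ± 0.18 with α-tocopherol (adjusted p = 0.96) and by 0.29 ± 0.12 on the mixed diet (adjusted p = 0.16). With the 18S covariate it differed by 0.35 ± 0.19 (adjusted p = 0.33) and 0.42 ± 0.13 (adjusted p = 0.060).

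Cd36, the main membrane fatty acid translocase of muscle and heart, was 1.53-fold lower with α-tocopherol than in young controls. Young controls read 11.14, 11.32, 11.16, 11.69 and 11.75, and old controls 11.03, 11.28, 10.80, 11.01 and 11.16, with 3 of 5 below all young ones. The α-tocopherol group read 10.89, 10.56, 10.55, 11.10 and 10.88, all below every young control. The mixed group read 10.79, 11.16, 11.17, 11.33 and 11.05. Old and young controls differed by -0.35 ± 0.15 (limma adjusted p = 0.18), and α-tocopherol and old controls by -0.26 ± 0.15 (adjusted p = 0.21). The difference between α-tocopherol and young controls was -0.62 ± 0.15 (adjusted p = 0.0063); it was -0.77 ± 0.24 with the hybridization covariate (adjusted p = 0.095) and -0.26 ± 0.23 with the 18S covariate (adjusted p = 0.64). The mixed diet differed from old controls by 0.042 (95% interval -0.26 to 0.34).

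Fabp3, the heart fatty acid binding protein, passed the test in no comparison. It ranged from 15.84 to 16.13 in young controls (median 16.05), 15.60 to 15.99 in old controls (15.92), 15.72 to 16.06 with α-tocopherol (15.87) and 15.34 to 15.95 on the mixed diet (15.81). Its differences were -0.18 with age (95% interval -0.42 to 0.052), 0.072 with α-tocopherol (-0.16 to 0.31) and -0.084 on the mixed diet (-0.32 to 0.15). Fabp4, the binding protein of adipocytes and capillary endothelium, ranged from 10.33 to 11.48 in young controls (median 11.07), 11.01 to 11.28 in old controls (11.19), 10.60 to 11.57 with α-tocopherol (11.07) and 10.95 to 11.46 on the mixed diet (11.01). It differed by 0.16 with age (95% interval -0.21 to 0.54), -0.086 with α-tocopherol (-0.46 to 0.29) and -0.0081 on the mixed diet (-0.38 to 0.37). The groups overlapped for both genes in each of these comparisons.

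Counted over the 8 tested member probe sets, 3 were called lower with age and 0 higher, where 2.2% of all tested probe sets were called lower and 2.74% higher. Their median age difference was -0.33, with 7 of 8 below 0, and that of all tested probe sets 0.014. With α-tocopherol 3 were called higher and 0 lower, against a background of 8.92% higher and 12.8% lower, and on the mixed diet 2 higher and 0 lower, against 2.67% and 3.77%. Compared with young controls, the α-tocopherol group had 3 lower and 0 higher (background 8.87% and 6.77%), and the mixed group 1 lower and 0 higher (background 3.11% and 2.44%). Groups did not overlap for 3 of 8 with age, where 7.02% of all tested probe sets had groups apart, for 1 with α-tocopherol (16.2%), for 1 on the mixed diet (8.32%), for 2 between α-tocopherol and young controls (11.2%) and for 2 between the mixed diet and young controls (6.47%). The comparisons with old controls share those animals, as do those with young controls.

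The diets were also compared with each other, at their own doses: α-tocopherol at 1000 mg/kg against α- and γ-tocopherol at 500 mg/kg each. With limma, 0 of the 8 member probe sets passed, where 0.309% of all tested probe sets were called higher and 0.255% lower on the mixed diet, and 1 had an unadjusted p below 0.05 (Cd36, 0.30 ± 0.15 higher on the mixed diet, limma adjusted p = 0.31). Pnpla2 differed by -0.27, the mixed diet being lower (95% interval of the difference -0.57 to 0.031), and it was the 1 member with groups apart, against 3.9% of all tested. The difference was 0.036 for Lipe (95% interval -0.35 to 0.42) and 0.021 for Slc27a1 (-0.37 to 0.42). An adjusted p above the threshold does not show that the diets act alike.

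**Figure D3:**
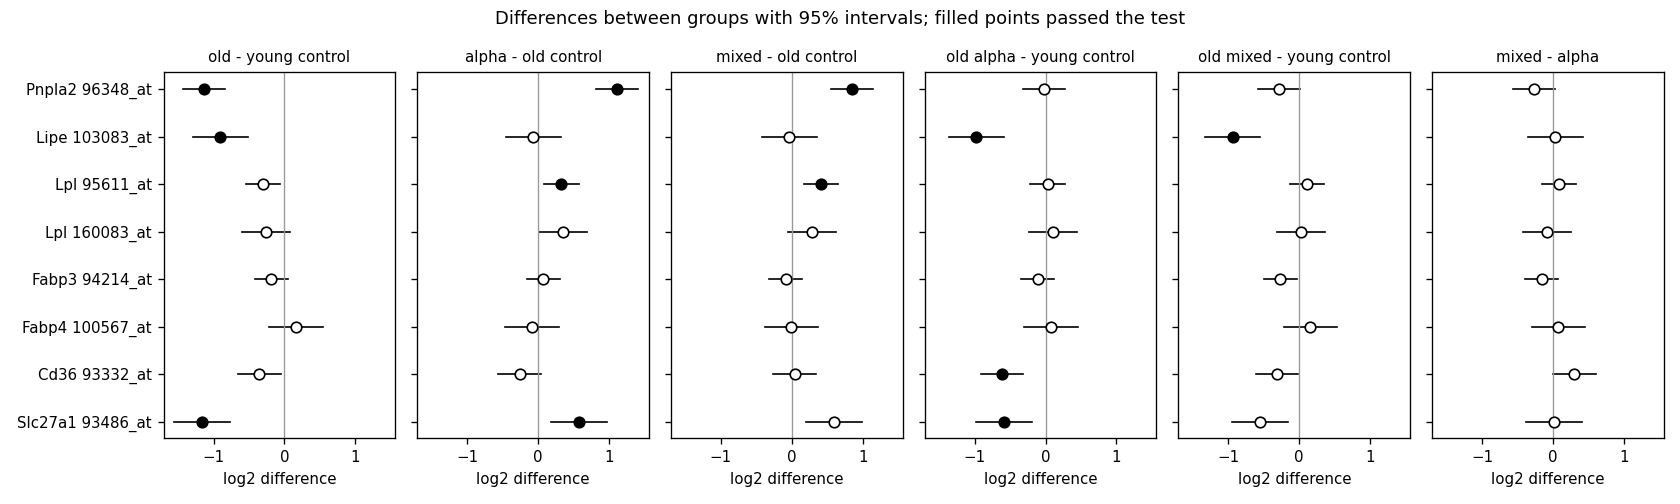
Log2 differences of the 8 tested member probe sets in 6 comparisons, with 95% intervals from limma; filled points passed the test. Pnpla2 lies at -1.13 with age and at 1.11 and 0.85 with the supplements, and Lipe at -0.91, -0.98 and -0.94 against young controls.

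**Figure D4:**
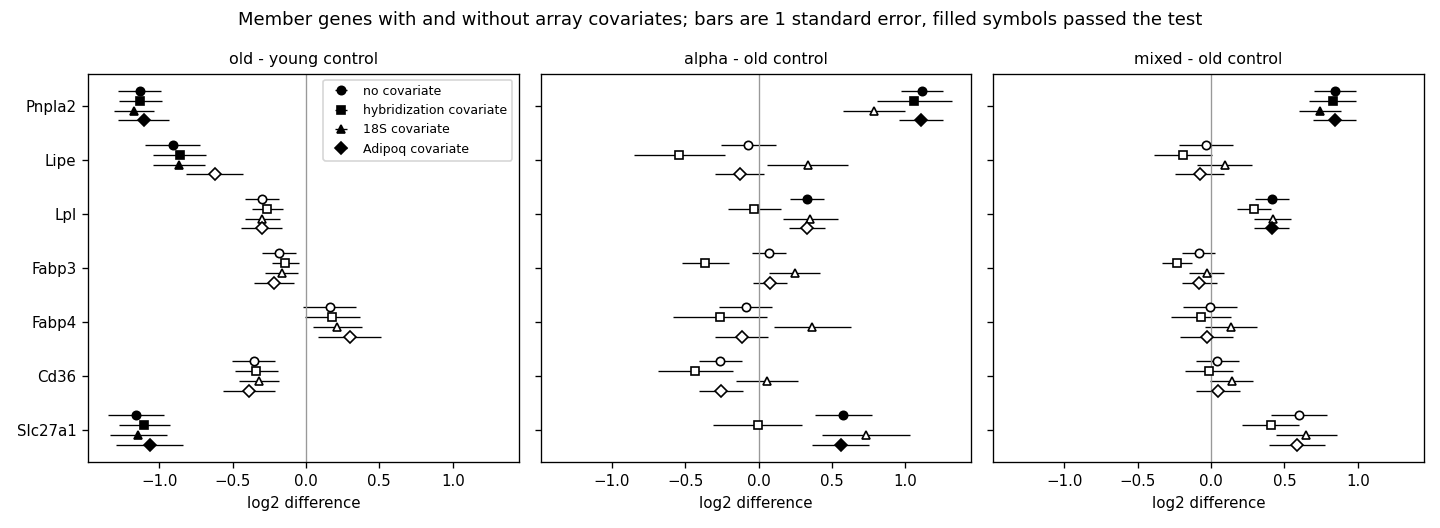
Log2 differences of the 7 member genes with age and with each supplement, without a covariate and with the hybridization controls, the 18S level or the Adipoq level added; bars are 1 standard error and filled symbols passed the test. For Slc27a1 with α-tocopherol the difference is 0.58 without a covariate and -0.0056 with the hybridization controls, while Pnpla2 with α-tocopherol stays at 0.79 or more.

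Among animals of the same group, 2 of 21 pairs of member genes varied together. Over the deviations of 20 animals from their group means, Lipe and Fabp4 had a Pearson r of 0.65 (permutation p = 0.003, 0.049 after Benjamini-Hochberg adjustment over 21 pairs; Spearman rho 0.71, p = 0.003, adjusted 0.038). Leaving out the 2 animals farthest from the median of Lipe gave 0.63. Fabp3 and Cd36 had an r of 0.62 (permutation p = 0.0047, adjusted 0.049; rho 0.63, p = 0.0037, adjusted 0.038), and 0.70 without the 2 farthest animals. Pnpla2 and Lipe had an r of 0.38 (permutation p = 0.11, adjusted 0.38), and Pnpla2 and Slc27a1 one of 0.40 (permutation p = 0.15, adjusted 0.39).

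Among the 5662 other named genes, those whose levels over the 20 arrays were most like Pnpla2 were Eef2 (r = 0.85, and 0.30 within groups) and Esyt1 (0.84 and 0.62). For Lipe they were Agpat3 (0.85 and 0.45) and Acadl, a mitochondrial acyl-CoA dehydrogenase (0.84 and 0.68). Slc27a1 was most like Lrg1 (0.90 and 0.74) and Saraf (0.83 and 0.46), and Lpl most like Pde4dip (0.80 and 0.68) and Sqstm1 (0.78 and 0.73). Cd36 came with Mtm1 (0.84 and 0.74) and Pkp4 (0.83 and 0.62), Fabp3 with Ndufa3 (0.76 and 0.77) and Ablim1 (0.74 and 0.72), and Fabp4 with Hmgcs1 (0.84 and 0.85) and Gabpb1 (0.77 and 0.78). The arrays share 4 groups, so these values describe likeness and carry no test.

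Other genes of lipolysis and the lipid droplet also differed with age. Of 11 tested, 2 were called higher and 2 lower in old controls, with a median of -0.26. Plin4, a lipid droplet coat protein, fell by 1.71 ± 0.18 on the log2 scale (limma adjusted p = 1.8e-06), and Gpam, which starts glycerolipid synthesis, fell by 0.57 ± 0.13 (adjusted p = 0.0093). G0s2, an inhibitor of the Pnpla2 enzyme, rose by 0.76 ± 0.18 (adjusted p = 0.012; 0.55 and 0.083 without young control 3 and old control 3). Plin4 was higher than in old controls with α-tocopherol (0.68, adjusted p = 0.0079) and on the mixed diet (0.73, adjusted p = 0.017), and in both it stayed below young controls, by -1.03 and -0.98 in log2. Plin2, another droplet coat protein, was 0.48 higher with α-tocopherol (adjusted p = 0.047), a call kept in 10 of 26 alternatives. Lpin1, a phosphatidate phosphatase, was higher than in young controls in old controls (0.48 ± 0.087, adjusted p = 0.0019), with α-tocopherol (0.52) and on the mixed diet (0.42). G0s2 was also higher with α-tocopherol than in young controls (0.92), but differed from old controls by 0.15 (adjusted p = 0.57). Against young controls, the α-tocopherol calls of Lpin1 and G0s2 were lost with the hybridization covariate (adjusted p = 0.138 and 0.254). With the 18S covariate both were lost (adjusted p = 0.133 and 0.283), as was that of Plin4 (adjusted p = 0.186). In all, 2 of the 11 were called higher with α-tocopherol, 1 on the mixed diet and 0 lower in either. Between the diets 0 were called. Of all tested probe sets, 2.74% were called higher and 2.2% lower with age. With α-tocopherol 8.92% of all were called higher, and on the mixed diet 2.67%.

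Among the partners of Lpl, Angptl4, a secreted inhibitor of the enzyme, had the larger of the called age differences. It fell by 1.83 ± 0.14 on the log2 scale with age (limma adjusted p = 2.2e-08) and was also lower than in young controls with α-tocopherol (-1.70) and on the mixed diet (-2.32). With its probe sets averaged, Angptl4 differed by -1.12 with age (adjusted p = 0.0021) and by -1.46 between the mixed diet and young controls, and both passed. At its brightest probe set it was lower on the mixed diet than with α-tocopherol by -0.62 ± 0.14 in log2 (adjusted p = 0.042) and than in old controls by -0.48 (adjusted p = 0.040), calls kept in 5 and 9 of 26 alternatives. Vldlr, a receptor for triglyceride-rich lipoproteins, fell by 0.88 ± 0.17 with age (adjusted p = 0.0033; -0.67 and 0.063 without old controls 1 and 4). Of 11 tested partners, 2 were called lower with age and 0 higher, 1 was higher with α-tocopherol (the heparan sulfate proteoglycan Sdc1, 0.83 ± 0.24, adjusted p = 0.016), and 2 were lower on the mixed diet (Angptl4 and the proteoglycan Hspg2, -0.61 ± 0.18, adjusted p = 0.043, kept in 12 of 26 alternatives). Of all tested probe sets, 2.2% were called lower with age, 8.92% higher with α-tocopherol and 3.77% lower on the mixed diet.

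Of 11 tested genes of fatty acid uptake and activation, 1 was called lower with age, where 2.2% of all tested probe sets were. This gene was Acot1, a cytosolic acyl-CoA thioesterase, which fell by 2.26 ± 0.20 on the log2 scale (limma adjusted p = 1.3e-07). Acot1 was higher than in old controls with α-tocopherol (0.84, adjusted p = 0.0041) and on the mixed diet (0.77, adjusted p = 0.021), and below young controls in both (-1.43 and -1.49). Got2, a mitochondrial aminotransferase also described as a membrane fatty acid binding protein, was higher with α-tocopherol (0.78 ± 0.15, adjusted p = 0.00073) and on the mixed diet (0.62 ± 0.15, adjusted p = 0.015). Cav1, the coat protein of caveolae, was lower with α-tocopherol (-0.55 ± 0.13, adjusted p = 0.0058), but with its probe sets averaged the difference was -0.21 and did not pass (adjusted p = 0.28). Among 11 tested regulators, Foxo3 fell by 0.60 ± 0.14 with age (adjusted p = 0.013) and was higher with α-tocopherol (0.62, adjusted p = 0.0037) and on the mixed diet (0.78, adjusted p = 0.0024). Cebpb fell by 0.75 ± 0.21 with age (adjusted p = 0.042, kept in 12 of 26 alternatives), and the retinoid receptor Rxrg was lower with α-tocopherol (-0.56 ± 0.19, adjusted p = 0.036, kept in 13 of 26). Foxo3 with age missed the threshold without old controls 1 and 4 (-0.66, adjusted p = 0.0502).

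Several of these pathway calls lay near the threshold and were lost when single animals were left out. Plin2 with α-tocopherol was lost without any one old control or α-tocopherol animal 1, 3 or 5 (differences of 0.36 to 0.51), and Rxrg without old control 1, 3, 4 or 5 or α-tocopherol animal 3, 4 or 5 (-0.58 to -0.40). Sdc1 was lost without old control 2 (0.67, limma adjusted p = 0.052). On the mixed diet, Plin4 was lost without animal 1 (0.66, adjusted p = 0.0502), Acot1 without old control 2 or 4 or animal 2 (0.66 to 0.72), Hspg2 without old control 1, 2, 3 or 5 or any one of animals 2 to 5 (-0.64 to -0.53), and Angptl4 without old control 1, 3, 4 or 5 or animal 1, 2, 3 or 5 (-0.51 to -0.43). The difference of Angptl4 between the diets was lost without any one of the 10 animals, at -0.68 to -0.56, and Cebpb with age without young control 1, 2, 3 or 5 or old control 1, 2, 4 or 5 (-0.79 to -0.66). Without old controls 1 and 4 together, Plin4 was 0.49 higher with α-tocopherol (adjusted p = 0.093) and 0.53 higher on the mixed diet (adjusted p = 0.13). With the hybridization or the 18S covariate, each α-tocopherol call against old controls that is named in these 4 lists was lost, while standard errors grew and many differences stayed about as large. Got2 differed by 0.70 ± 0.26 with the hybridization covariate and 0.66 ± 0.23 with 18S, and Foxo3 by 0.56 ± 0.25 and 0.56 ± 0.23. Plin4 differed by 0.30 ± 0.29 and 0.86 ± 0.28. The α-tocopherol arrays differ from old controls in both measures, so diet and array cannot be told apart there.

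Some markers of other cell types moved with the supplements, and their part in the members' differences was not tested. Of all tested probe sets, 8.92% were called higher and 12.8% lower with α-tocopherol. On the mixed diet the shares were 2.67% and 3.77%, and with age 2.74% and 2.2%. Of 14 endothelial markers 2 were called higher with age, 4 lower with α-tocopherol and 3 lower on the mixed diet; their summed intensity was 45888 to 55968 in old controls and 41039 to 46521 with α-tocopherol. Of 12 macrophage markers 6 were lower with α-tocopherol and 2 on the mixed diet, and of 10 fibroblast markers 6 were lower and 1 higher with α-tocopherol and 4 lower and 1 higher on the mixed diet. The macrophage sum was 38149 to 46498 in old controls, 24493 to 39493 with α-tocopherol and 22990 to 40417 on the mixed diet. The fibroblast sum was 76813 to 82452, 60685 to 91602 and 57319 to 85894 in the same groups. In mean log2, the fibroblast sum differed from old controls by -0.036 with α-tocopherol and -0.083 on the mixed diet (exact permutation p = 0.81 and 0.67). The macrophage sum differed by -0.452 and -0.401 in the same order (exact permutation p = 0.016 for each, 0.069 after adjustment over 48 tests). The endothelial sum differed by -0.191 and -0.155 (exact permutation p = 0.024 for each, 0.082 after adjustment). Of 10 cardiomyocyte markers 4 were higher with α-tocopherol (summed intensity 829898 to 1014835, against 715501 to 838135 in old controls) and 0 were called with age or on the mixed diet. In mean log2, the cardiomyocyte sum differed from old controls by 0.246 with α-tocopherol (exact permutation p = 0.016, 0.069 after adjustment). On the mixed diet it differed by -0.053 (exact permutation p = 0.59). Skeletal muscle markers (6 tested) had 2 higher and 1 lower with α-tocopherol and 1 higher on the mixed diet. Their sum had a lower mean log2 than in old controls, by -0.287 and -0.358 (exact permutation p = 0.087 and 0.032, adjusted 0.25 and 0.1). With age it differed by 0.481 (exact permutation p = 0.024, adjusted 0.082). Liver markers (4 tested) had 2 lower with each supplement, among them Alb (-4.71 ± 0.65 with α-tocopherol and -4.33 ± 0.65 on the mixed diet). The liver sum was 3042 to 14900 in old controls and 662 to 1573 with α-tocopherol. In mean log2 it differed by -2.575 and -2.52 (exact permutation p = 0.0079 for each, adjusted 0.063). The single tested T cell marker was not called. With age, 0 markers of macrophages, fibroblasts, cardiomyocytes, skeletal muscle, liver or T cells were called.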

How the data were processed

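Mouse hearts were measured on 20 Affymetrix murine arrays, 1 per animal. The deposited table holds a linear intensity per probe set, scaled by the authors to a shared trimmed mean with 2% left out at each end, as the values show (1501.0 to 1501.1); no software is named for it (not given in the sources used here), and no per-read depth exists for arrays, whose number limits the precision. Per the labels' protocols, polyadenylated RNA was labelled from frozen tissue. The number of animals is 5 per group, grouped by the labels.

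Here the deposited intensity was taken as log2(intensity + 58), which understates changes of dim probe sets; the value 58 lies at percentile 10.1 of all values. The deposited scaling was kept. Left out were 66 control probe sets and, of the rest, the dimmest 40%. The 4 group means were estimated jointly from the 20 arrays by limma 3.58.1 (R 4.3.3), using lmFit and then eBayes with its trend and robust settings, tested on simulated data first, with p-values two-sided and adjusted by Benjamini-Hochberg over the tested probe sets. Single values (control probe sets, Pnpla2 minus Lipe) had exact permutation tests, and within-group correlations 100000 permutations. Of 12422 probe sets, 10833 had 1 gene symbol, 396 several and 1193 none; RefSeq (GRCm38.p6) matched 10817 and changed 0. Where a gene had several tested probe sets, the brightest stood for it.

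Named genes were all members, up to 3 called genes with the largest change per pathway list and comparison, and the 2 most alike genes per member. Alb, Adipoq, Thrsp, Ucp1 and the other adipocyte markers given by name were named after their values were seen. The members and lists were chosen with earlier results of these data known. Alternatives were other pseudocounts, filters, scalings, fits, weights, the replicate block, covariates and left-out animals. Same-numbered animals of different groups did not vary together (correlations of deviations -0.08 to 0.10), so numbers do not pair them. Promoter motifs were matched on both strands as exact letters unless mismatches are given.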

Additional observations from a re-analysis of the deposited data

Results flagged for a closer look

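In 56 sets of 5 values (member probe sets, control measures and Pnpla2 minus Lipe in each group), 6 had an animal far from the other 4, its gap to the nearest exceeding 0.71 of the whole range; chance gives about 1 in 20. Pnpla2 read 15.45 in young control 2, with the others at 14.97 to 15.07. On the mixed diet, Pnpla2 read 14.52 in animal 3, with the others at 14.85 to 14.95. The dim second probe set of Cd36, which was not tested, read 6.28 in α-tocopherol animal 2 and 6.18 to 6.20 in the rest. Its mean intensity was 15.9 in the α-tocopherol group, where all 5 animals lay above all old controls (mean 7.98). On the mixed diet the mean was 17.9, and 4 of the 5 animals lay above all old controls. This signal lies near the bottom of the array. Hybridization controls read 12.39 in mixed-diet animal 5, against 13.10 to 13.32. The Gapdh 3' minus 5' difference was 1.21 in old control 3, against -0.15 to -0.11, and 0.011 in mixed-diet animal 1, against -0.17 to -0.13.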

How the results depend on the processing

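The 12 called member differences were refitted under 311 alternatives; 250 kept direction and call, 59 lost the call and 2 changed sign. The called age differences of Pnpla2 and Slc27a1, the mixed-diet difference of Pnpla2 and that of Lipe between the mixed diet and young controls kept the call in all 26 alternatives each. The differences that were not called gave 925 alternative values, of which 14 passed and 72 changed sign; 0 passed after a change of sign. Pnpla2 minus Lipe kept its direction and an unadjusted exact permutation p below 0.05 in 12 of 12 alternatives for each supplement. These were other pseudocounts and each animal left out in turn, and no array covariate was among them. The 10 fits with an animal left out could not lose this result. Every supplemented animal lay above every old control, so the exact permutation p stayed at the smallest possible value (0.016). Those fits therefore say nothing about how firm the difference is. Both within-group correlations kept their direction and call under quantile normalization and a larger pseudocount.

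Counts of called members changed as follows. With age, 2 were called, in place of 3, with the Adipoq covariate or without old controls 1 and 4 and 4 with array weights or without young control 3 and old control 3, and leaving out each animal gave 3 to 4. With α-tocopherol, 1 was called with the hybridization covariate or without old controls 1 and 4 and 0 with the 18S covariate, in place of 3, and leaving out each animal gave 1 to 4. On the mixed diet, 1 was called, in place of 2, without the filter, with median centring, without the variance trend, with either covariate of the arrays, without old controls 1 and 4 and with a gene's probe sets averaged, and leaving out each animal gave 1 to 3. Between α-tocopherol and young controls 0 passed with the 18S covariate, in place of 3, and leaving out each animal gave 2 to 3. Between the mixed diet and young controls, in place of 1, 2 passed with array weights or without young control 3 and old control 3, and 3 with the hybridization covariate. With the sample number as a replicate block, though the numbers do not pair the animals, the called members were 3 with age, 2 with α-tocopherol and 1 on the mixed diet.

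Among called differences, those of Lpl and Slc27a1 with α-tocopherol changed sign, both under the hybridization covariate; the other sign changes below are of differences that were not called. With array weights, values were with α-tocopherol Lipe 0.044, on the mixed diet Lipe 0.044, between the diets Lipe -0.00034, between α-tocopherol and young controls Lpl -0.018 and between the mixed diet and young controls Lpl (second probe set) -0.00089. With the 18S covariate, values were with α-tocopherol Lipe 0.34, Fabp4 0.37 and Cd36 0.058, on the mixed diet Lipe 0.093 and Fabp4 0.13, between the diets Lipe -0.24, Lpl (second probe set) 0.13, Fabp4 -0.23 and Slc27a1 -0.083, between α-tocopherol and young controls Lpl (second probe set) -0.24 and Fabp3 0.083 and between the mixed diet and young controls Lpl (second probe set) -0.11. Without young control 3 and old control 3, values were with α-tocopherol Lipe 0.037, on the mixed diet Lipe 0.073 and Cd36 -0.023, between α-tocopherol and young controls Lpl -0.062 and between the mixed diet and young controls Lpl (second probe set) -0.039. With the hybridization covariate, values were with α-tocopherol Lpl -0.028, Fabp3 -0.36 and Slc27a1 -0.0056, on the mixed diet Cd36 -0.014, between the diets Lpl (second probe set) 0.082 and Fabp3 0.13, between α-tocopherol and young controls Lpl -0.29, Lpl (second probe set) -0.12 and Fabp4 -0.079 and between the mixed diet and young controls Lpl (second probe set) -0.034. After quantile normalization, values were with α-tocopherol Fabp3 -0.15, on the mixed diet Fabp4 0.0081, between the diets Fabp3 0.0085 and between α-tocopherol and young controls Lpl -0.088. Without old controls 1 and 4, values were on the mixed diet Fabp4 9.6e-05. With the Adipoq covariate, values were between α-tocopherol and young controls Pnpla2 0.0043. With median centring, values were between the mixed diet and young controls Lpl (second probe set) -0.0075. Leaving out each animal in turn gave these ranges for the differences that changed sign: with age Fabp4 -0.0072 to 0.28, with α-tocopherol Lipe -0.20 to 0.037 and Fabp4 -0.21 to 0.034, on the mixed diet Lipe -0.18 to 0.073, Fabp3 -0.14 to 0.017, Fabp4 -0.082 to 0.044 and Cd36 -0.023 to 0.12, between the diets Lipe -0.11 to 0.17, Lpl (second probe set) -0.21 to 0.030, Fabp4 -0.043 to 0.20 and Slc27a1 -0.13 to 0.13, between α-tocopherol and young controls Pnpla2 -0.054 to 0.066, Lpl -0.062 to 0.095, Lpl (second probe set) -0.0088 to 0.23 and Fabp4 -0.094 to 0.20, between the mixed diet and young controls Lpl (second probe set) -0.050 to 0.081 and Fabp4 -0.015 to 0.27. The cause of each change was not tested.

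Array intensities near background limit what can be said of the dim Cd36 probe set, and 5 animals per group left a median standard error of 0.179 on the log2 scale over all tested probe sets.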
